A study of Homo sapiens with 4 samples.

Results

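The genes described are those of the SR and hnRNP splicing proteins, with the TRA2 and PTB proteins and the kinases that phosphorylate SR proteins. They were chosen by name, but with earlier results of these data known. The rule took every protein-coding gene whose symbol begins with SRSF or HNRNP. It also took TRA2A, TRA2B, PTBP1, PTBP2, PTBP3, CLK1, CLK2, CLK3, CLK4, SRPK1 and SRPK2. This gave 50 of the 60682 genes in the table, made up of 12 SR proteins, 2 TRA2 proteins, 27 hnRNP proteins, 3 PTB proteins and 6 kinases. JJN3 cells, an established line from a human multiple myeloma, a cancer of plasma cells, were transduced with a short hairpin RNA (shRNA) against WNK1 (shWNK1 cells) or with the shRNA labelled NS (NS cells, the control). Total RNA was sequenced from 2 libraries of each, 4 in all. The labels name 1 line and do not give the hairpin sequence, the time after transduction, or whether the 2 libraries of a group are separate cultures. A p-value therefore reflects no more than how far these libraries differ, and that difference may be technical.

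SR proteins carry RNA recognition motifs and a tail rich in arginine and serine, bind exonic enhancers and mostly promote inclusion of the exon they bind. The hnRNP proteins, among them the polypyrimidine tract binding (PTB) proteins, coat nascent transcripts and often act against exon inclusion, so that the balance between both groups sets many splicing choices. SRPK kinases phosphorylate the serine-rich tail in the cytoplasm and allow entry into the nucleus, and CLK kinases phosphorylate it further inside the nucleus. Many genes of these families regulate themselves through exons or introns that bring a premature stop codon, so that part of their RNA is destroyed by nonsense-mediated decay. Plasma cells and their tumours process large amounts of immunoglobulin pre-mRNA, which is itself alternatively spliced.

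Most of these transcripts were lower in shWNK1 cells than in NS cells, by modest amounts. Of the 50 genes, 45 had enough counts to be tested, and 28 of these fell, where 20.2% of the 14864 genes tested fell. The number that rose was 3, where 18.5% of all genes tested rose, and 14 were not called. A gene was called at a Benjamini-Hochberg adjusted p under 0.05 in the edgeR quasi-likelihood test. The median log2 fold change, shWNK1 over NS, was -0.29 over the 45 genes and 0.01 over all genes tested, and the 45 values ran from -1.26 to 0.39. Falls of at least 1.5-fold were found in 5 of the 45, namely PTBP3, SRSF9, HNRNPD, HNRNPA1L3 and HNRNPAB, where 14.9% of all genes tested were called with a change of that size in either direction. HNRNPA3, at -0.58, lay just short of that size. Both shWNK1 libraries lay below both NS libraries for 33 of the 45 genes (33.7% of all genes tested) and above both for 6 (34.7% of all genes tested).

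The counts by class were as follows. Among the hnRNP proteins 17 of 22 tested fell and 0 rose, with a median log2 fold change of -0.31. Among the SR proteins 7 of 12 fell and 1 rose (median -0.34), and of the 2 TRA2 proteins 1 fell. Of the 3 PTB proteins 2 fell, and among the 6 kinases 1 fell and 2 rose (median 0.05). Beside these counts, 20.2% of all genes tested fell and 18.5% rose. The 16.7% of kinases that fell is near that share. These differences between classes were not tested. In the share of all counts, the 50 genes together held 1.28% and 1.27% in the shWNK1 libraries, against 1.51% and 1.58% in the NS libraries. The hnRNP genes made up most of this, with 0.942% in both shWNK1 libraries, against 1.12% and 1.19% in the NS libraries. In bulk RNA, fewer cells with a transcript and less of it per cell cannot be told apart. DESeq2 called 25 lower and 1 higher among the 45 genes, where it called 18.8% of all genes lower and 15.3% higher. Without shWNK1 replicate 1 edgeR called 23 lower and 0 higher, where 12.4% and 10.54% of all genes tested were called. Without shWNK1 replicate 2 it called 24 lower and 2 higher, where 12.9% and 10.4% of all genes tested were called.

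**Figure D1:**
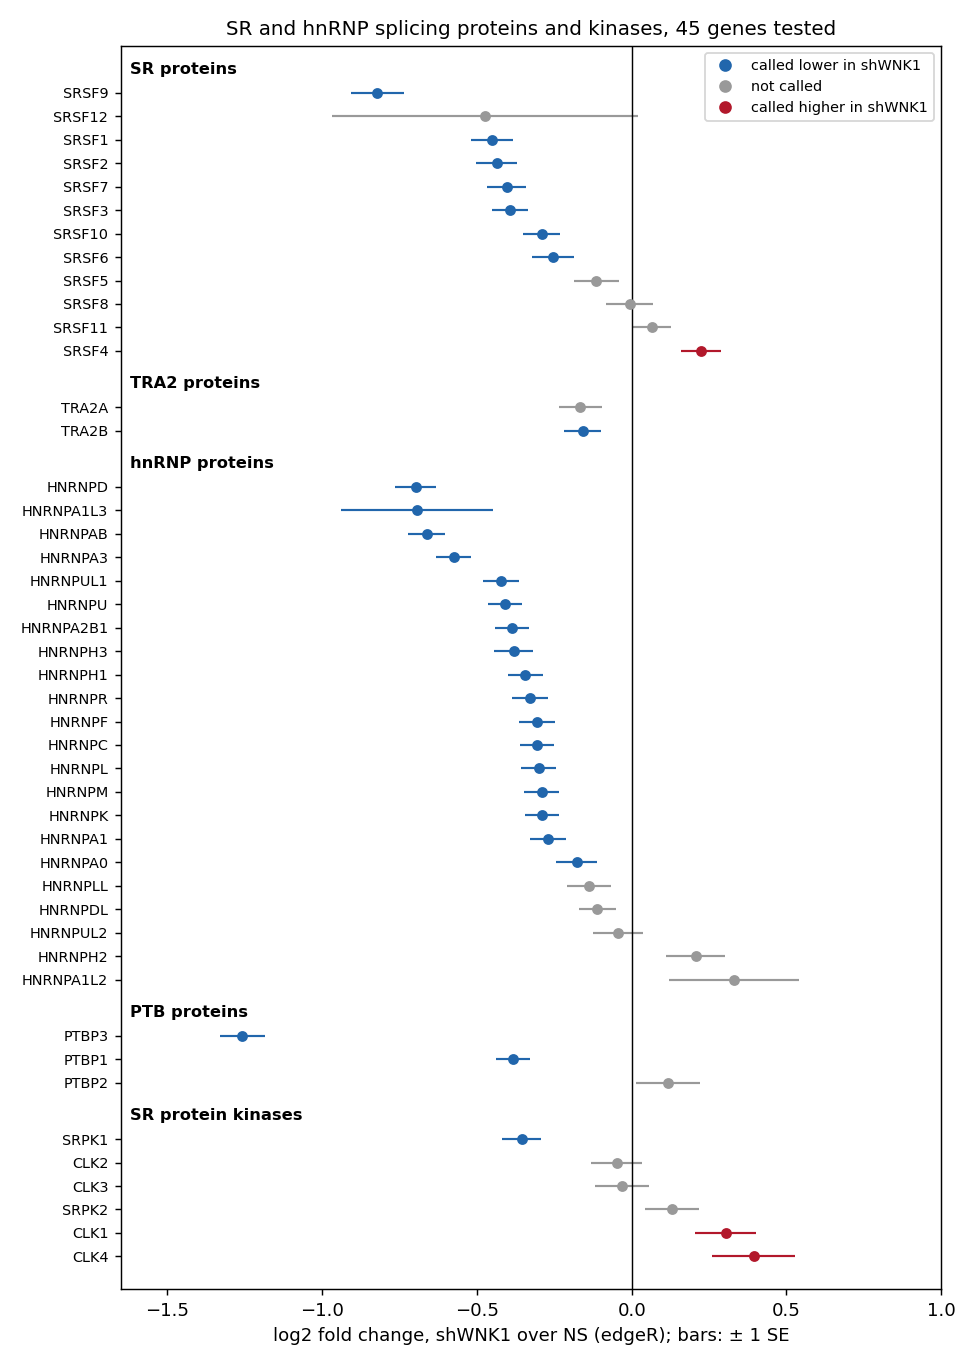
Log2 fold change of each of the 45 genes tested, shWNK1 over NS, by class, with bars of 1 standard error from the edgeR fit. Blue points were called lower, red points higher and grey points were not called. The points of the SR, hnRNP and PTB classes lie mostly left of 0, down to -1.26 for PTBP3, and the 3 red points are SRSF4, CLK1 and CLK4.

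Library totals were 16973521 and 20164122 in the shWNK1 libraries, against 17491537 and 17392619 in the NS libraries. A count of 0 allows up to about 3 counts, or 0.146 to 0.177 CPM, the unit of level used here, in which counts are scaled by library size. WNK1 was at 18.6 and 19.6 CPM in shWNK1 cells, against 288 and 245 CPM in NS cells, the direction that the labels call for. Of 7 plasma cell markers, all were detected, 2 rose and 4 fell, where 18.5% of all genes tested rose and 20.2% fell. Their summed level was 1425 and 1456 CPM in shWNK1 libraries, against 1710 and 1630 CPM in NS libraries. IRF4 was the largest part of that sum, which hides larger changes in single markers. SDC1 fell (log2 fold change -1.32, edgeR adjusted p = 3.3e-16) and SLAMF7 rose (2.96, edgeR adjusted p = 1.6e-11). The T and NK cell, myeloid and erythroid marker lists summed to at most 0.886 CPM in any library, and MS4A1 and CD22 of mature B cells had 0 counts. PAX5, another mature B cell marker, was at 2.92 and 3.07 CPM in shWNK1 cells, against 7.86 and 6.68 CPM in NS cells, and fell (log2 fold change -1.28, edgeR adjusted p = 8.6e-05). The stromal or epithelial list summed to 123 and 130 CPM in shWNK1 libraries, against 110 and 122 CPM in NS libraries, nearly all of it EPCAM, which was not called (edgeR adjusted p = 0.22), while COL3A1 had 0 counts. The part of these markers in the results was not tested. The share of mitochondrially encoded transcripts was 5.82% and 6.02% in shWNK1 libraries, against 4.93% and 4.58% in NS libraries. It moved with the groups, and its part in the results was not tested. With immunoglobulin and mitochondrially encoded genes left out of the fit, the same counts of 28 lower and 3 higher genes were found.

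A 6-base word, AGTATC, had been noted in the 3′ UTRs of falling genes in an earlier look at these data, so its presence here is no independent support of anything. It was looked up in every one of the genes. Among the 44 genes both tested and with a 3′ UTR annotated in GENCODE v29 (GRCh38), 14 carried it (31.8%), against 25.3% of all 11889 genes tested and searched. The 4 genes with more than 1 place were PTBP3 with 5, CLK3 with 4, SRSF10 with 3 and HNRNPA3 with 2. Their sites are shown because PTBP3, with the largest fall of the 45 genes, and CLK3, which was not called, are among them. Each line gives the 6 bases of the word in capitals, with their coordinates, and 12 bases on each side, read 5′ to 3′ in the direction of the transcript.
PTBP3 site 1, chr9:112219727-112219732 on the minus strand: tgagactaaagtAGTATCagtattctggtt
PTBP3 site 2, chr9:112220648-112220653 on the minus strand: tacttactggagAGTATCagaattacccag
PTBP3 site 3, chr9:112220674-112220679 on the minus strand: gaaaaatgacccAGTATCttaattgatact
PTBP3 site 4, chr9:112220893-112220898 on the minus strand: ttgatctaccgtAGTATCctatttttaagt
PTBP3 site 5, chr9:112220933-112220938 on the minus strand: atgcatttattcAGTATCttctagcaatgg
SRSF10 site 1, chr1:23965272-23965277 on the minus strand: attatattctgaAGTATCtgtgacttgagt
SRSF10 site 2, chr1:23966451-23966456 on the minus strand: aataacttttatAGTATCacaaaatgtttt
SRSF10 site 3, chr1:23966806-23966811 on the minus strand: ctgccatttaaaAGTATCcagtatttgatc
HNRNPA3 site 1, chr2:177221429-177221434 on the plus strand: cacaaccttgacAGTATCctttaatggcat
HNRNPA3 site 2, chr2:177223622-177223627 on the plus strand: ttgaaacctgacAGTATCttgggagttcca
CLK3 site 1, chr15:74635649-74635654 on the plus strand: aggtgaagaagcAGTATCagctacatactt
CLK3 site 2, chr15:74636281-74636286 on the plus strand: gcaggcattaacAGTATCtatttcatagga
CLK3 site 3, chr15:74637019-74637024 on the plus strand: ctgtgtaccagcAGTATCatgtgggcaagt
CLK3 site 4, chr15:74645107-74645112 on the plus strand: ttcactaatatcAGTATCacaaaggacaac

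Of the 14 carriers, 10 fell, 0 rose and 4 were not called (CLK3, PTBP2, SRSF11 and SRSF12), with a median log2 fold change of -0.39. Of the 30 genes without the word, 17 fell, 3 rose and 10 were not called, with a median of -0.22. Over all genes tested, 33.0% of carriers and 20.4% of the others fell. Carriers also had longer 3′ UTRs, with a median of 2578 bases, against 1451 bases in the genes of these families without the word, and 2990 against 1031 bases over all genes. PTBP3, which had the largest fall of the 45, held all 5 of its places in 1 transcript, and 3 of its 5 annotated 3′ UTR transcripts carried at least 1. CLK3 had 4 places, in 1 of its 4 such transcripts, and a log2 fold change of -0.03 (edgeR adjusted p = 0.82). SRSF9, HNRNPD and HNRNPAB, the next largest falls among genes with over 10 CPM, had 0 places. Their longest annotated 3′ UTRs have 351, 1687 and 540 bases, against 6135 for PTBP3 and 10287 for CLK3. Gene counts do not show which transcripts are made, and the part of the word or of 3′ UTR length in any change was not tested.

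**Figure D2:**
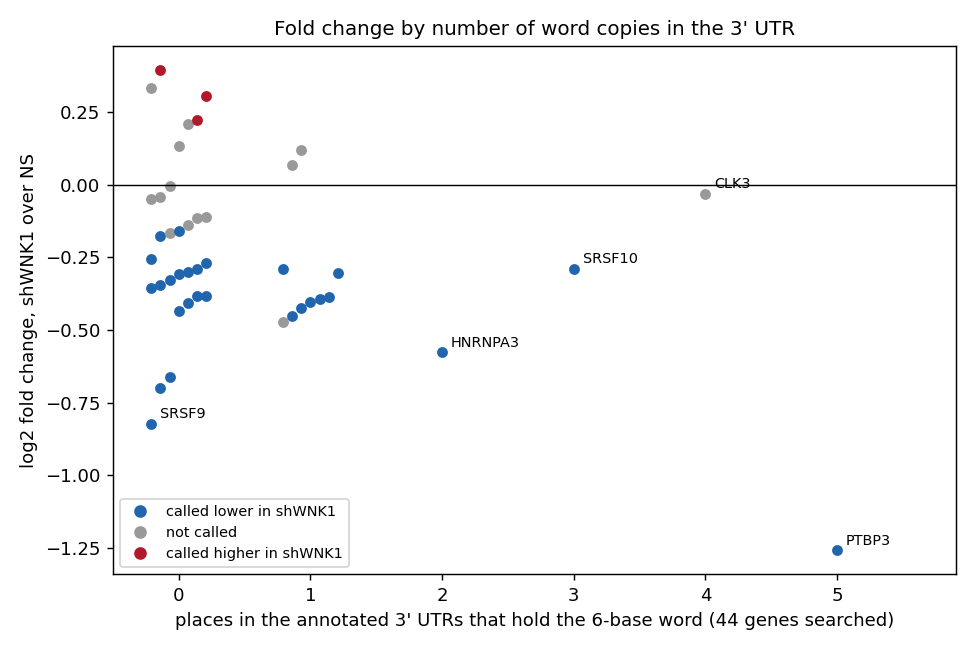
Log2 fold change, shWNK1 over NS, against the number of places in the annotated 3′ UTRs that hold the word, for 44 genes, with points spread sideways within a number so that they can be seen. PTBP3 stands at 5 places and -1.26, CLK3 at 4 places and -0.03, and SRSF9 at 0 places and -0.82.

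The SR proteins split by member. SRSF9, a short SR protein with 2 RNA recognition motifs (ENSG00000111786.9, chr12:120461672-120469748, minus strand, hg38), was at 91.2 and 100 CPM in shWNK1 cells, against 150 and 188 CPM in NS cells. The groups did not overlap, and the level was 56.6% of that in NS cells (log2 fold change -0.82, SE 0.086, edgeR adjusted p = 1.5e-07). Of the exonic bases of SRSF9, 46.7% are overlapped by GATC on the opposite strand, and the counting did not use strand. GATC, a subunit of a mitochondrial amidotransferase, was at 57.5 and 55.3 CPM in shWNK1 cells, against 48.5 and 47.6 CPM in NS cells. It rose (log2 fold change 0.23, edgeR adjusted p = 0.033). The part of the overlap in the counts of SRSF9 was not tested.

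SRSF1, the founding SR protein and an oncogene in several tumours, was at 130 and 120 CPM in shWNK1 cells, against 179 and 163 CPM in NS cells. Its 2 groups did not overlap (log2 fold change -0.45, SE 0.068, edgeR adjusted p = 2.1e-06). SRSF2, which is mutated in myeloid leukaemias, was at 161 and 144 CPM in shWNK1 cells and 199 and 213 CPM in NS cells (log2 fold change -0.44, edgeR adjusted p = 3e-06). Other genes overlap 35.1% of the exonic bases of SRSF1 and 35.8% of those of SRSF2, which lies against MFSD11 on the opposite strand. SRSF3, the smallest SR protein, which also acts in mRNA export, was at 343 and 326 CPM in shWNK1 cells and 435 and 444 CPM in NS cells (log2 fold change -0.39, edgeR adjusted p = 1.4e-06). SRSF7, its close relative with a zinc knuckle, was at 165 and 153 CPM in shWNK1 cells and 211 CPM in both NS libraries (-0.40, edgeR adjusted p = 3.7e-06). SRSF9, SRSF1, SRSF2, SRSF3, SRSF7 and SRSF10 kept their calls under every one of the 12 alternatives tried.

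SRSF10, which acts as a splicing repressor when it loses its phosphates, was at 247 and 242 CPM in shWNK1 cells and 310 and 287 CPM in NS cells (log2 fold change -0.29, edgeR adjusted p = 0.00021). SRSF6 was at 109 and 106 CPM in shWNK1 cells and 130 and 127 CPM in NS cells (log2 fold change -0.25, edgeR adjusted p = 0.0029). That call ended without shWNK1 replicate 1 (0.0549) and without shWNK1 replicate 2 (0.0784). SRSF5 was at 107 and 95.7 CPM in shWNK1 cells and 108 and 111 CPM in NS cells, a difference that was not called (edgeR adjusted p = 0.22).

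SRSF4, SRSF5 and SRSF6 are long SR proteins of 1 related group, and SRSF4 was the SR gene that rose. It was at 161 and 164 CPM in shWNK1 cells, against 138 and 140 CPM in NS cells, with no overlap (log2 fold change 0.22, SE 0.064, edgeR adjusted p = 0.0053). The call ended without shWNK1 replicate 1 (0.0638) or shWNK1 replicate 2 (0.128), where the value was 0.24 and 0.20. As a share of the counts of SRSF4, SRSF5 and SRSF6 together, SRSF4 made up 42.8% (95% Wilson interval 41.6 to 43.98) and 44.8% (43.7 to 45.97) in shWNK1 libraries, against 36.7% (35.6 to 37.9) and 37.2% (36.0 to 38.4) in NS libraries. Such intervals cover counting error within a library only, not differences between libraries. They are too narrow where PCR copies of 1 molecule are counted more than once.

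The remaining SR genes were not called. SRSF8, a gene close to SRSF2 in sequence, was at 79.4 and 82.6 CPM in shWNK1 cells and 82.3 and 80.4 CPM in NS cells. SRSF11, an SR protein that works with U2AF, was at 224 and 225 CPM in shWNK1 cells and 218 and 211 CPM in NS cells (log2 fold change 0.07, SE 0.060, edgeR adjusted p = 0.42). SRSF12 had 16 and 32 counts in shWNK1 libraries and 39 and 20 in NS libraries, too few for a narrow estimate (-0.47, SE 0.49). The TRA2 proteins resemble SR proteins and bind GAA-rich enhancers. TRA2B was at 253 and 242 CPM in shWNK1 cells and 272 and 281 CPM in NS cells (log2 fold change -0.16, edgeR adjusted p = 0.033), and its call ended under 6 of the 12 alternatives, with adjusted p of 0.0509 (DESeq2) to 0.342 (without shWNK1 replicate 2). TRA2A was at 98.5 and 99.7 CPM in shWNK1 cells and 108 and 114 CPM in NS cells (log2 fold change -0.17, edgeR adjusted p = 0.061), and was called lower without NS replicate 1 (-0.21, 0.0154). Both TRA2 genes lay lower in both shWNK1 libraries than in either NS library, an order that 33.7% of all genes tested showed.

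**Figure D3:**
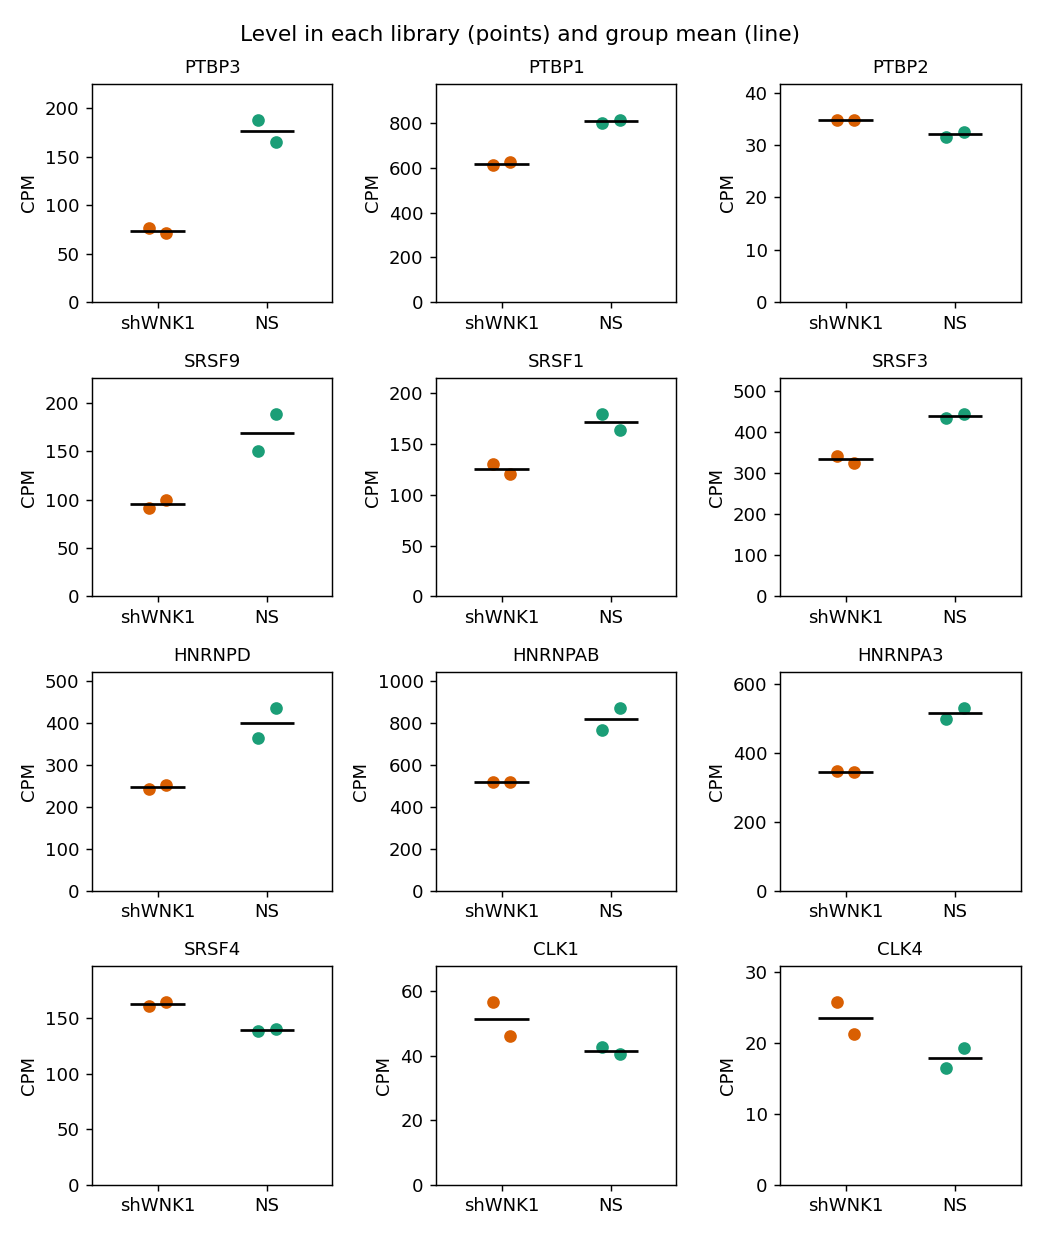
Level in CPM of 12 genes in each library, with shWNK1 left of NS in each panel, points for libraries and a line for the mean of the 2 libraries. In all 12 panels, including that of PTBP2, which was not called, both shWNK1 points lie on one side of both NS points. The 12 genes are a selection, and such separation is common: 33.7% of all genes tested lay below in this way and 34.7% above. For CLK1 and CLK4 the shWNK1 points are the more spread.

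Among the hnRNP proteins the largest falls were in members of the A and D group. These are small proteins with 2 RNA recognition motifs and a glycine-rich tail. Other members fell less, such as HNRNPA1 (log2 fold change -0.27) and HNRNPA0 (-0.18), and HNRNPA1L2 (0.33) was not called. HNRNPD, also called AUF1, which binds AU-rich elements and marks mRNA for decay (ENSG00000138668.19, chr4:82352498-82374503, minus strand), was at 242 and 251 CPM in shWNK1 cells, against 365 and 435 CPM in NS cells. Its groups did not overlap and the fall came to 1.62-fold (log2 fold change -0.70, SE 0.067, edgeR adjusted p = 1.4e-09). HNRNPAB, which binds single-stranded RNA and DNA, was at 516 and 520 CPM in shWNK1 cells, against 769 and 871 CPM in NS cells (log2 fold change -0.66, SE 0.060, edgeR adjusted p = 1.7e-10). HNRNPA3 was at 348 and 343 CPM in shWNK1 cells, against 500 and 530 CPM in NS cells (log2 fold change -0.58, SE 0.058, edgeR adjusted p = 9.9e-10). HNRNPDL, a close relative of HNRNPD, was at 286 and 276 CPM in shWNK1 cells and 293 and 313 CPM in NS cells and was not called (-0.11, SE 0.059, edgeR adjusted p = 0.14), except without NS replicate 1 (-0.16, 0.0149). Of the counts of HNRNPD, HNRNPDL and HNRNPAB together, HNRNPDL made up 27.4% (95% Wilson interval 26.7 to 28.0) and 26.3% (25.8 to 26.9) in shWNK1 libraries, against 20.5% (20.0 to 21.1) and 19.3% (18.9 to 19.8) in NS libraries.

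The most abundant hnRNP genes were also lower in shWNK1 cells. Per length (FPKM, the CPM divided by exon length in kilobases, means of 2 libraries), the most abundant of the 50 genes were HNRNPAB at 245 in shWNK1 and 387 in NS cells, HNRNPA1 at 223 and 270, HNRNPA2B1 at 192 and 252, and HNRNPK at 138 and 169. HNRNPAB, HNRNPA1 and HNRNPA2B1 thus stood in the same order in both groups, with HNRNPAB closer to HNRNPA1 in shWNK1 cells. That order depends on the annotation, because the exon length takes in every annotated exon of a gene. It is 2118 bases for HNRNPAB, 9267 for HNRNPA2B1 and 22512 for HNRNPU. In CPM, without division by length, HNRNPA2B1, HNRNPA1, HNRNPU and HNRNPK all lay above HNRNPAB in both groups. HNRNPA2B1, whose product also sorts microRNAs into exosomes, was at 1777 and 1791 CPM in shWNK1 cells, against 2249 and 2412 CPM in NS cells (log2 fold change -0.39, SE 0.056, edgeR adjusted p = 1.1e-06). HNRNPA1, the classic silencer of exons opposed to SRSF1, was at 1117 and 1158 CPM in shWNK1 cells and 1303 and 1443 CPM in NS cells (log2 fold change -0.27, edgeR adjusted p = 0.00031). Its call ended without shWNK1 replicate 1 (0.072), and it has 74 annotated pseudogenes, which could take some of its reads and held 606 counts in all, against 89930 on the gene. HNRNPU, a scaffold protein of nuclear chromatin, was at 864 and 892 CPM in shWNK1 cells and 1168 and 1163 CPM in NS cells (log2 fold change -0.41, edgeR adjusted p = 3.2e-07), and COX20 on the opposite strand overlaps 15.6% of its exonic bases.

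Of the other 11 hnRNP genes that fell, 9 lay close together. HNRNPUL1 (log2 fold change -0.42), HNRNPH3 (-0.38), HNRNPH1 (-0.34) and HNRNPR (-0.33) had edgeR adjusted p of 5e-07 to 1.9e-05. HNRNPF, a binder of G-runs like HNRNPH1 (-0.31), HNRNPC, which binds runs of U and forms the hnRNP core tetramer (-0.31), HNRNPL, a binder of CA repeats (-0.30), HNRNPM (-0.29) and HNRNPK, a KH-domain protein that binds runs of C (-0.29), had edgeR adjusted p of 3.8e-05 to 8.5e-05. In each of these 9 genes both shWNK1 libraries lay below both NS libraries, an order that 33.7% of all genes tested showed. Each of the 9 kept its call under all 12 alternatives. The last 2, HNRNPA0 and HNRNPA1L3, did not. HNRNPA0 was at 197 and 205 CPM in shWNK1 cells and 212 and 243 CPM in NS cells (log2 fold change -0.18, edgeR adjusted p = 0.03), and without NS replicate 2 the value was -0.07 (0.372). It was -0.27 without NS replicate 1 (1.79e-05), and the call was also lost in DESeq2 (0.068), under upper-quartile scaling (0.093), and when shWNK1 replicate 1 (0.318) or shWNK1 replicate 2 (0.134) was left out. HNRNPA1L3, a near-copy of HNRNPA1, was at 3.84 and 3.94 CPM in shWNK1 cells and 5.28 and 7.33 CPM in NS cells (log2 fold change -0.69, SE 0.25, edgeR adjusted p = 0.025). Without NS replicate 2 it was -0.43 (0.289), and the call ended with DESeq2 (0.0881) and without shWNK1 replicate 1 (0.134) or shWNK1 replicate 2 (0.111). Reads shared with HNRNPA1 make its level uncertain.

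The hnRNP genes that were not called differed in sign. HNRNPLL, which is known for regulating CD45 splicing in lymphocytes and the switch to secreted immunoglobulin in mouse plasma cells, was at 103 CPM in both shWNK1 libraries and 117 and 110 CPM in NS libraries (log2 fold change -0.14, SE 0.070, edgeR adjusted p = 0.12). It was called lower without NS replicate 2 (-0.18, 0.0419). HNRNPUL2 was at 71.7 and 75.1 CPM in shWNK1 cells and 70.9 and 80.3 CPM in NS cells, with overlapping groups (edgeR adjusted p = 0.72). The readthrough HNRNPUL2-BSCL2 overlaps 44.3% of the exonic bases of HNRNPUL2 on the same strand. HNRNPH2, the X-linked copy of HNRNPH1, averaged 55.9 ± 5.32 CPM in shWNK1 cells and 48.3 ± 6.10 CPM in NS cells (SD, n = 2 each), with overlapping groups (0.21, edgeR adjusted p = 0.088). It was called higher with upper-quartile factors (0.25, 0.0415) and without NS replicate 1 (0.34, 0.00236). HNRNPA1L2, another near-copy of HNRNPA1, was at 7.91 and 6.86 CPM in shWNK1 cells and 5.92 and 5.79 CPM in NS cells (log2 fold change 0.33, edgeR adjusted p = 0.22). The filter left out 5 genes. HNRNPCL1, HNRNPCL2, HNRNPCL3 and HNRNPCL4, copies of HNRNPC, had 0 to 3 counts in any library. HNRNPUL2-BSCL2 had 1 count in all. HNRNPUL2 and BSCL2 overlap 100% of its exonic bases on the same strand, so its level is uncertain.

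Of the PTB proteins, repressors that bind pyrimidine-rich tracts, PTBP3 had the largest fall of all 45 genes. PTBP3, also called ROD1 and known for its expression in blood-forming cells (ENSG00000119314.15, chr9:112217716-112333667, minus strand), was at 76.4 and 71.3 CPM in shWNK1 cells, against 188 and 165 CPM in NS cells. The groups were far apart, 73.8 ± 3.57 CPM against 176 ± 16.2 CPM (SD, n = 2 each), a 2.39-fold fall (log2 fold change -1.26, SE 0.073, edgeR adjusted p = 5.7e-15). Over the 12 alternatives the value ran from -1.34 to -1.16. PTBP1, the widely expressed member, was at 611 and 626 CPM in shWNK1 cells, against 801 and 813 CPM in NS cells (log2 fold change -0.38, SE 0.055, edgeR adjusted p = 1.2e-06). PTBP2, the neuronal member, was at 34.7 CPM in both shWNK1 libraries and 31.4 and 32.6 CPM in NS libraries and was not called (0.12, SE 0.10, edgeR adjusted p = 0.39).

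The share of each PTB gene in the counts of the family was not tested, and is given for each library. PTBP3 held 10.6% (95% Wilson interval 10.0 to 11.1) and 9.74% (9.28 to 10.2) of PTB counts in shWNK1 libraries, against 18.4% (17.9 to 19.0) and 16.3% (15.8 to 16.9) in NS libraries. PTBP2 held 4.81% (4.45 to 5.20) and 4.74% (4.42 to 5.09) in shWNK1 libraries, against 3.08% (2.83 to 3.35) and 3.22% (2.97 to 3.50) in NS libraries. The NS libraries differed from each other in the share of PTBP3 beyond these counting intervals. Per length PTBP1 remained far above both, at 89.9 FPKM in shWNK1 and 117 FPKM in NS cells.

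Among the kinases, CLK1 and CLK4 rose and SRPK1 fell. CLK1, which frees SR proteins from nuclear speckles and regulates its own splicing, was at 56.5 and 46.2 CPM in shWNK1 cells, against 42.6 and 40.4 CPM in NS cells (log2 fold change 0.30, SE 0.099, edgeR adjusted p = 0.014). CLK4, its close relative, was at 25.7 and 21.3 CPM in shWNK1 cells, against 16.4 and 19.3 CPM in NS cells (log2 fold change 0.39, SE 0.13, edgeR adjusted p = 0.019). Neither gene's groups overlapped, but both rises leaned on shWNK1 replicate 1. Without it CLK1 was at 0.16 (adjusted p = 0.415) and CLK4 at 0.26 (0.328) in edgeR, and both calls also ended with DESeq2 (0.0562 for CLK1 and 0.0719 for CLK4). The call on CLK4 ended without NS replicate 1 as well (0.12).

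SRPK1, a mainly cytoplasmic SR kinase, was at 158 and 149 CPM in shWNK1 cells, against 200 and 192 CPM in NS cells (log2 fold change -0.36, SE 0.063, edgeR adjusted p = 2.9e-05), and kept its call under all 12 alternatives. LHFPL5 on the opposite strand overlaps 28.1% of its exonic bases. SRPK2 was at 71.6 and 75.8 CPM in shWNK1 cells and 73.9 and 60.6 CPM in NS cells, with overlapping groups (log2 fold change 0.13, edgeR adjusted p = 0.25). It was called higher without NS replicate 1 (0.28, 0.00502), and without NS replicate 2 the value was 2e-04. CLK2 was at 57.6 and 58.5 CPM in shWNK1 cells and 60.6 and 59.5 CPM in NS cells and was not called (edgeR adjusted p = 0.69). The shWNK1 libraries of CLK3, at 59.9 and 53.2 CPM, lay on either side of its NS libraries, at 57.6 and 57.9 CPM. Together CLK1 and CLK4 held 41.2% (95% Wilson interval 39.5 to 42.8) and 37.6% (36.1 to 39.2) of the counts of the 4 CLK genes in shWNK1 libraries, against 33.3% (31.6 to 35.0) and 33.7% (32.0 to 35.4) in NS libraries. A gene's count sums all its isoforms: 34 of the 50 genes have annotated transcripts subject to nonsense-mediated decay and 31 have retained-intron transcripts, and these forms were not separated.

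Promoters were searched for the E-box CACGTG, the same on both strands and the site of MYC and related factors, because several of these genes fell together. RefSeq promoter windows (GRCh38.p14, 250 bases before to 50 after a start) were found for 45 of the 50 genes. The E-box was in 10 of their 65 windows, in 9 genes, and in 8.34% of the 22197 windows of protein-coding genes. Of the 9 genes with an E-box, HNRNPA3, HNRNPD, HNRNPH3, HNRNPM and HNRNPUL1 fell, CLK4 rose, and CLK2, HNRNPDL and HNRNPH2 were not called (median log2 fold change -0.29). Of the 32 tested genes with a window but no E-box 20 fell, 2 rose and 10 were not called, with a median of -0.30. Over all genes tested with a window, 28.3% of the 1253 with an E-box and 22.8% of the 8530 without it fell. The part of the motif in any change was not tested. HNRNPD and HNRNPA3 shared the longer context GTCACGTGAC, found in 110 windows (0.496%) and in no other of the 45 genes with a window. These windows, with that of CLK4, are shown because they belong to the most lowered genes with the motif and to the one that rose, with the E-box in capitals, read 5′ to 3′ in the direction of the transcript.
HNRNPD promoter, chr4:82373942-82374241 on the minus strand: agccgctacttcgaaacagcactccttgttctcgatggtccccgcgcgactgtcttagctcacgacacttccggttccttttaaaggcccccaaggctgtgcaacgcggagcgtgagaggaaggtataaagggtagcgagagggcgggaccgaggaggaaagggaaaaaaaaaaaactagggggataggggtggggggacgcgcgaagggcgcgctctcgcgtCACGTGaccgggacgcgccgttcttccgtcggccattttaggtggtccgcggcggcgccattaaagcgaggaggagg
HNRNPA3 promoter, chr2:177212544-177212843 on the plus strand: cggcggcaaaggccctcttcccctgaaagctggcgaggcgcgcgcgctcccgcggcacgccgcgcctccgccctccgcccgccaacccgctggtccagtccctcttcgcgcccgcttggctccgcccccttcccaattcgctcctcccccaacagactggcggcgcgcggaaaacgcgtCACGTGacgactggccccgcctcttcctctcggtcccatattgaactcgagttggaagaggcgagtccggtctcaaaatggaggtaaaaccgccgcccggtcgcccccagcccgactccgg
CLK4 promoter, chr5:178627001-178627300 on the minus strand: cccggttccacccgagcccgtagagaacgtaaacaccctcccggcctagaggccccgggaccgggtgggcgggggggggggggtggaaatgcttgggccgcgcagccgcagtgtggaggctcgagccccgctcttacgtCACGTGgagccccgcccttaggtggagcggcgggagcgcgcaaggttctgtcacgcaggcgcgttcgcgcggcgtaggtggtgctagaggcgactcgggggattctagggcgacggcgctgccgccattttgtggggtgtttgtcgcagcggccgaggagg

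The rest of the splicing machinery was set beside these genes from lists of 151 other genes, of which 148 were tested. Of these, 67 fell (45.3%, against 20.2% of all genes tested) and 12 rose (8.11%, against 18.5%), with a median log2 fold change of -0.14. Among 25 Sm and U snRNP proteins, the core of the spliceosomal snRNPs, 17 fell (68.0%) and 0 rose (median -0.30). Fewer of them fell without shWNK1 replicate 2, as did fewer of all genes tested. The ring subunit SNRPG was at 35.7 and 39.6 CPM in shWNK1 cells, against 74.5 and 86.5 CPM in NS cells (log2 fold change -1.10, edgeR adjusted p = 2.4e-11), and SNRPF fell by 0.79. Of 14 factors that recognise the branch point and 3′ splice site, 7 fell, among them SF3B3 (-0.44) and PUF60 (-0.29), and SF3B1 rose (0.21). Most of those falls were lost without shWNK1 replicate 1, and some without shWNK1 replicate 2 or NS replicate 2. The rise of SF3B1 was lost in each of these fits. Fewer of all genes tested were called lower in them as well. Of 27 tri-snRNP, PRP19 complex and helicase genes, 11 fell (40.7%), such as DHX38 (-0.54) and SART1 (-0.42), and AQR rose (0.39). Fewer of them fell when either shWNK1 library was left out, as did fewer of all genes tested.

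Of 38 other RNA-binding splicing regulators tested, 20 fell (52.6%, against 20.2% of all genes tested), among them PCBP2 (log2 fold change -0.52) and EWSR1 (-0.46). The 2 that rose, RBFOX2 (0.56) and CELF2 (0.32), made up 5.26%, against 18.5% of all genes tested. Taking out NS replicate 1 gave 4 rises. Of 15 exon junction and decay factors, 7 fell (46.7%, against 20.2% of all genes tested), including MAGOH (-0.78) and the kinase SMG1 (-0.36). In the same list 4 rose (26.7%, against 18.5% of all genes tested), including SMG9 (0.70), which binds SMG1, and the endonuclease SMG6 (0.68). Taking out shWNK1 replicate 1 left 4 falls, and taking out shWNK1 replicate 2 or NS replicate 2 left 2 rises, as did DESeq2. Of 20 SR-related proteins, which have the arginine and serine tail but a different build, 4 fell, or 20.0%, near the 20.2% of all genes tested, and 3 rose, or 15.0%, against 18.5% of all genes tested. LUC7L3 (-0.58) and PNN (-0.53) were among those that fell. SREK1 (0.25) and SCAF11 (0.20) were among the 3 that rose, but 0 rises were left when shWNK1 replicate 1 was taken out, and 1 when shWNK1 replicate 2 or NS replicate 2 was or when DESeq2 was used. Of 9 other SR kinases, phosphatases and import receptors tested, the phosphatase subunit PPP1CC fell (-0.49) and the kinase DYRK1A rose (0.24). Each is 11.1% of the list, below the share of all genes tested. The rise of DYRK1A was lost with DESeq2 (adjusted p = 0.0934), with no low-count filter (0.0565), and when either shWNK1 library or NS replicate 2 was taken out (0.0869 to 0.318), and taking out NS replicate 1 gave 3 rises and 2 falls.

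**Figure D4:**
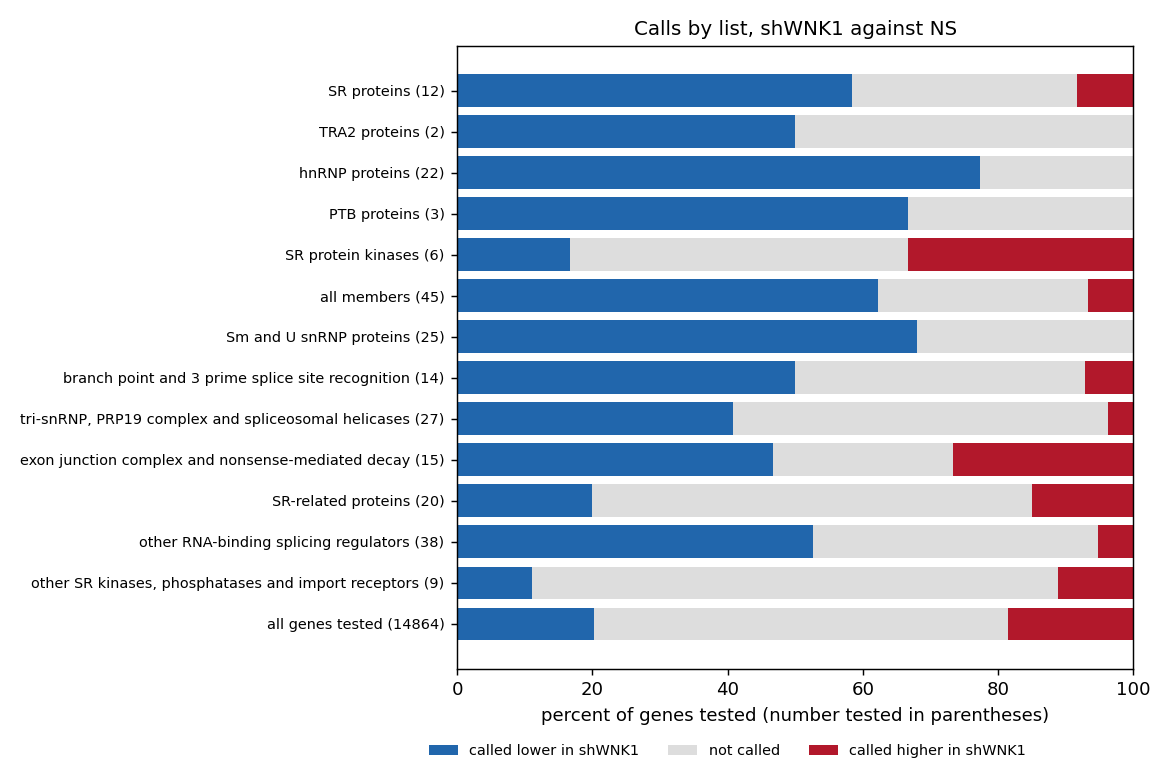
Percent of tested genes called lower, not called and called higher in shWNK1 cells, for each class, all 45 genes, each other splicing list and all 14864 genes tested, with the number tested in parentheses. The lower share is 77.3% for hnRNP proteins and 68.0% for Sm and U snRNP proteins, against 20.2% of all genes tested. Of the 6 kinases 33.3% were called higher, against 18.5% of all genes tested. These were CLK1 and CLK4, whose calls ended with DESeq2.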

How the data were processed

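Total RNA of 2 shWNK1 and 2 NS libraries of JJN3 cells was sequenced, per the labels. The table deposited by the authors gives unnormalized counts for each gene, made with featureCounts 2.0.0 on GENCODE 34, per the file headers: read pairs with both ends mapped, a mapping quality of at least 20, no chimeric pairs and strand setting 0. Trimmomatic, STAR and hg38 are named in the submitters' processing notes, without tool versions. Since strand was not used and multimapping reads were not requested, overlapping genes and near-identical copies are uncertain.

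Of 60728 genes listed, 1 broken over several lines and 45 Y copies of pseudoautosomal genes (0 counts) were left out, and 60369 of the remaining 60682 matched a symbol. Counts were tested with edgeR 4.0.16 (R 4.3.3): filterByExpr, TMM factors, glmQLFit and glmQLFTest (two-sided, group only, 2 residual degrees of freedom), Benjamini-Hochberg over all 14864 genes tested, called under 0.05. CPM use TMM-scaled library sizes. FPKM divide CPM by the exon length in the table. The script was tested on simulated data. Shares have 95% Wilson intervals, which cover counting error only. Coordinates are those of the table. 3′ UTRs came from GENCODE 29 (which holds 58495 of the identifiers) and promoters from RefSeq GRCh38.p14.

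Alternatives were DESeq2 1.42.0, limma-voom (limma 3.58.1), RLE and upper-quartile factors, 2 other filters, the replicate number as a block, immunoglobulin and mitochondrially encoded genes left out, and each library left out. The genes and lists were chosen with earlier results of these data known. Named genes were all members of the families, WNK1, and up to 2 genes rising and 2 falling per other splicing list by smallest p. GATC was named after its values were seen.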

Additional observations from a re-analysis of the deposited data

How the results depend on the processing

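Of the 28 falls, 23 kept their call and direction under all 12 alternatives, and of the 3 rises 0 did so. The number of falls was 25 to 28 under the 8 alternatives that kept all 4 libraries and 23 to 30 with 1 library left out. The number of rises was 1 with DESeq2 and 0 to 4 with 1 library left out. Among all genes tested, the 8 alternatives with all 4 libraries called 10.4% to 22.3% lower and 8.89% to 21.2% higher. The median log2 fold change of the 45 genes ran from -0.30 to -0.25. Over all genes, leaving out 1 library gave 1632 to 2778 rises and 1964 to 3024 falls. Where a group is left with 1 library, that library is assumed to vary like the others. The sign turned for 4 genes, none of them called in either case. With upper-quartile factors CLK3 was at 0.008 and SRSF8 at 0.0333. With 1 library left out, CLK3 ran from -0.1132 to 0.0479, SRSF8 from -0.0405 to 0.0261, SRSF12 from -0.9187 to 0.0767 and HNRNPUL2 from -0.1308 to 0.0547. Calls were gained by HNRNPH2 with upper-quartile factors, by HNRNPH2, HNRNPDL, SRPK2 and TRA2A without NS replicate 1, and by HNRNPLL without NS replicate 2. The cause of these changes was not tested. Same-numbered libraries did not deviate together across all genes taken at once (r = 0.00447). The column headers of same-numbered libraries share a letter (A or B), whose meaning the labels do not give. A single correlation over all genes cannot show whether such libraries were grown or prepared together. With the replicate block, 27 of the 45 genes fell and 3 rose, with a median of -0.29, and 2804 of all genes fell and 2539 rose, with TRA2B the one call lost among the 45 (edgeR adjusted p = 0.0603). Depth limits SRSF12, HNRNPA1L2 and HNRNPA1L3, with 16 to 141 counts in a library, and the 5 untested genes.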
